A study of Rattus norvegicus with 3 samples.

Results

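The genes described here serve the folding, secretion and degradation of proteins in the endoplasmic reticulum (ER). They were given as a list of 39 genes by name, of 26115 gene names on the array. A member was taken from every non-control probe that carried its name in the scanner files, without regard to its values. Of the 39, 38 had at least 1 probe of that name, in 45 probes in all, and 36 were well above background in each comparison. Expression was measured in ROS17/2.8, a clonal rat osteosarcoma line used as a model of bone-forming osteoblasts, and labelled as osteoblast. Confluent cells stood in a mineralization medium with ascorbate phosphate and a glycerophosphate, which all groups shared. They received polyphosphate, a linear chain of phosphate residues, at 1 mg/ml (the high dose) or 0.01 mg/ml (the low dose) for 24 h, or none (the control, for which the labels give no time). Each group was 1 one-colour array of Cy3-labelled cRNA from total RNA, so that no value below has a replicate, an SD between cultures or a p-value.

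The ER receives nearly all proteins that a cell secretes or places in its membranes. Nascent chains enter through the Sec61 translocon, are glycosylated, fold with the help of chaperones such as BiP (Hspa5) and of disulfide isomerases, and leave in vesicles coated by COPII. Chains that do not fold are returned to the cytosol and destroyed, a route called ER-associated degradation. When unfolded chains accumulate, the sensors PERK (Eif2ak3), IRE1 (Ern1) and ATF6 start the unfolded protein response, in which ATF6 and the spliced form of XBP1 raise chaperone and degradation genes through ER stress response elements in their promoters, while PERK acts through ATF4 and CHOP. Osteoblasts secrete large amounts of collagen and other matrix proteins and depend on this machinery.

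Promoter sequences are shown because the elements that tie many of these genes to ER stress stand in them, against which the array values can be read. RefSeq promoter windows (GRCr8, 250 bases before to 50 after the gene start) were matched by symbol for 31 of the 39 members. The ER stress response element ERSE, searched on both strands as CCAAT, 9 bases of any kind and CCACG, was found in 22 of 33469 windows (0.0657%). These 22 windows belong to 21 genes, of which 8 (38.1%) were members: Hspa5, Hsp90b1, Calr, Canx, Dnajc3, Creld2, Xbp1 and Derl3. The related ERSE-II, searched as ATTGG, 1 base of any kind and CCACG, was found in 17 windows (0.0508%), and 3 of its 17 genes were members: Hyou1, Dnajb11 and Herpud1. Both elements hold the pentamer CCACG, which stood in 31.6% of all windows and in 23 of the 31 members' windows (74.2%). The element UPRE, searched as TGACGTGG, was found in 199 windows (0.595%) and in those of Hyou1 and Sec23a. A match is a description of letters and not a shown binding site. The stretches below end before the gene start, run along the gene's strand and have the fixed letters of each ERSE or ERSE-II in capitals.
Hsp90b1: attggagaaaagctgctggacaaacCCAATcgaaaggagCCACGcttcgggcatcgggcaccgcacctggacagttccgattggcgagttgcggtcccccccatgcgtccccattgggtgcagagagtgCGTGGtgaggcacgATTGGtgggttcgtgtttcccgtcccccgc
Canx: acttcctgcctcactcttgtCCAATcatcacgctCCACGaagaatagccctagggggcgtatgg
Hspa5: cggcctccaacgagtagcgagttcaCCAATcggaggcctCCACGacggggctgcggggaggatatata
Calr: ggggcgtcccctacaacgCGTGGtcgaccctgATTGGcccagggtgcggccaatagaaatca
Xbp1: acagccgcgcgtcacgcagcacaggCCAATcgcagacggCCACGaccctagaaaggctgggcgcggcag
Dnajc3: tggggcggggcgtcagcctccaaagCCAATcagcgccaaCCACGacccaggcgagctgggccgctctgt
Creld2: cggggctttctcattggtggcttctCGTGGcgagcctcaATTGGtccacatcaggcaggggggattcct
Herpud1: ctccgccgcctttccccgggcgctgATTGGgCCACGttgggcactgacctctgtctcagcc
Hyou1: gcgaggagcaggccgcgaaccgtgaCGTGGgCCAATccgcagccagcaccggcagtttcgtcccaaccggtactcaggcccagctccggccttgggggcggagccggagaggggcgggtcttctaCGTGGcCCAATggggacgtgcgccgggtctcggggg
The stretch of Hsp90b1 lies on the minus strand at chr7:23012322-23012494 and that of Canx on the minus strand at chr10:35158044-35158107. Hspa5 (chr3:38452948-38453015), Xbp1 (chr14:84604533-84604601), Dnajc3 (chr15:102432509-102432577), Calr (chr19:40213117-40213178), Creld2 (chr7:121789214-121789282) and Hyou1 (chr8:53602669-53602829) are on the plus strand, and Herpud1 (chr19:10614796-10614856) is on the minus strand. Hsp90b1 had 2 ERSE matches and Hyou1 had 2 ERSE-II matches, while each of the others shown had 1. The ERSE-II match of Dnajb11, ATTGGCCCACG, crosses the gene start.

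Signals below are intensities scaled to the control array by the 75th percentile of all non-control spots, which was 937, 964 and 926 on the high dose, low dose and control arrays. Signals, and sums over a list of markers, are compared between arrays only, and those of different genes or lists are not set against each other. The ± after a log2 ratio is its spot error, computed from the spread between repeat spots on an array, pooled over probes of like level. It is thus not the gene's own spread, and the spots of a named gene can lie further apart. It also leaves out every difference between cultures, RNA preparations and labelling reactions. A gene is called higher or lower where the arrays lie at least 1.2-fold apart (a log2 ratio of 0.26). Of 30367 probes, 55.9% to 57.2% were well above background on an array. The osteoblast label was checked on 9 markers: 7 (Runx2, Sp7, Alpl, Ibsp, Spp1, Bglap and Col1a1) were well above background on all arrays, with a summed signal of 29650 to 29884, while Phex and Dmp1 were not on any. That narrow range hides opposite log2 ratios at the high dose over control. They were -0.16 for Runx2, -0.20 for Sp7, -0.13 for Alpl, -0.02 for Ibsp and -0.23 for Col1a1, but 0.26 for Spp1 and 0.23 for Bglap. Of markers of other cells, 2 of 6 chondrocyte, 1 of 5 adipocyte, 3 of 6 macrophage or osteoclast, 3 of 5 endothelial and 3 of 4 muscle markers were well above background on all arrays. Their summed signals were 432 to 591, 132 to 140, 237 to 256, 590 to 621 and 190 to 193 in that order, with the chondrocyte sum highest at the low dose, and Col2a1, Adipoq, Ptprc, Kdr and Myod1 were not well above background. The part of such cells in the values was not tested, and fewer cells of a type cannot be told apart from less RNA per cell. Centring on 8 spike-in probes would move every log2 ratio up by 0.15 (high dose over control) or 0.16 (low dose over control), so that the ratios below are read against the median over all genes, which was -0.01 and 0.00 under the scaling used. With that centring all 36 measured members would stand above 0 at the high dose, and all but Ern1 at the low dose, so a sign below 0 against control holds only relative to the other genes.

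The first comparison concerned the ER genes under 1 mg/ml polyphosphate and in untreated cells. Of the 36 measured members 2, Hsp90b1 and Canx, were at least 1.2-fold higher, against a background of 7.16% of all 14495 genes, and 0 were lower against 7.87%. The share of members called was no higher than that of the array as a whole, which covers genes of every level and is not matched to the members. The members are mostly bright, with 29 of 36 at or above the median level, and among genes at such levels 2.4% were called higher and 2.54% lower. Of the 2 called members, Hsp90b1 is at such a level and Canx, at 403 on the control array, is below it. The median log2 ratio over the members was 0.04, with 24 above 0 and 12 below. Of all 14495 genes 6947 were above 0, and of the 7248 at or above the median level 3421 were. By the measure of more than 2 spot errors from 0, 8 members were higher, against 10.7% of all genes and 12.2% of genes at or above the median level, and 1 member was lower, against 12.8% and 16.3%. The members ran from -0.12 for Creld2 to 0.34 for Hsp90b1.

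**Figure D1:**
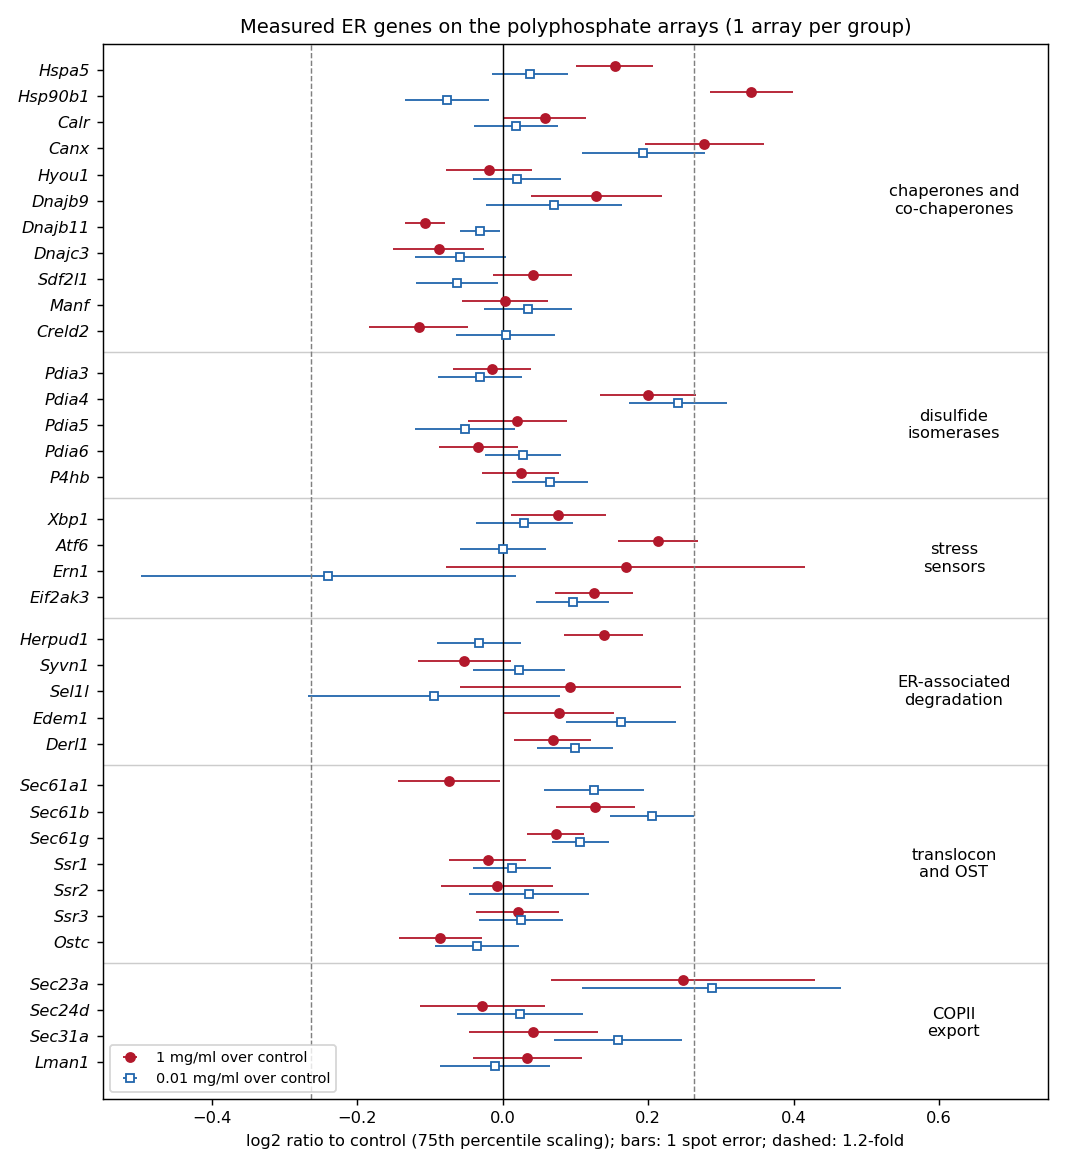
Log2 ratio of each measured ER gene at the high dose (filled circles) and the low dose (open squares) over the control array, with bars of 1 spot error and dashed lines at 1.2-fold, in 6 groups by role. Hsp90b1 at 0.34 and Canx at 0.28 are the members beyond the upper line at the high dose, and Sec23a at 0.29 is the member beyond it at the low dose.

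Among the 11 chaperones and co-chaperones at the high dose, 7 were above 0 and 4 below, with a median of 0.04. Hsp90b1 encodes GRP94, the HSP90 of the ER lumen, and its probe lies on chromosome 7 at 23334474 to 23334623 (rn4). Its signal was 5036 in control cells, 4778 under the low dose and 6382 under the high dose. Both spots at the high dose, 6856 and 5940, lay above both control spots, 5537 and 4581, and above both low dose spots, 5048 and 4522. The log2 ratio was 0.34 ± 0.06 for high against control, a fold of 1.27, and -0.08 ± 0.06 for low against control. Canx encodes calnexin, the membrane-bound lectin that holds glycoproteins during folding. Its signal followed the order of the dose, at 403, 460 and 488, with log2 ratios over control of 0.19 ± 0.08 (low dose) and 0.28 ± 0.08 (high dose). The Canx spots were 443 and 366 on the control array and 507 and 470 at the high dose, so that the 2 arrays did not overlap, while a low dose spot of 441 lay below the brighter control spot.

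Hspa5, the BiP gene and a standard readout of the unfolded protein response, read 14115, 14484 and 15706 in control, low dose and high dose cells. Its log2 ratios were 0.04 ± 0.05 and 0.15 ± 0.05, below the 1.2-fold line, with both high dose spots above the spots of the other arrays. Calr, for the soluble lectin calreticulin, stood at 0.06 ± 0.06 at the high dose. The nucleotide exchange factor gene Hyou1 stood at -0.02 ± 0.06. Of the co-chaperones that serve BiP with a J domain, Dnajb9 stood at 0.13 ± 0.09, Dnajc3 at -0.09 ± 0.06 and Dnajb11 at -0.11 ± 0.03. Dnajb11 had 10 spots per array, of which 9 were used on the control array. It read 2774, 2715 and 2576 from control to high dose. It was the member lower by more than 2 spot errors at the high dose. Sdf2l1, which works with Dnajb11, stood at 0.04 ± 0.05, and its 2 probes gave 0.02 and 0.06. Manf, a secreted survival factor of stressed cells, stood at 0.00 ± 0.06. Creld2, another ER stress gene, stood at -0.12 ± 0.07, and its spots disagreed, with ratios of 0.01 and -0.24.

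**Figure D2:**
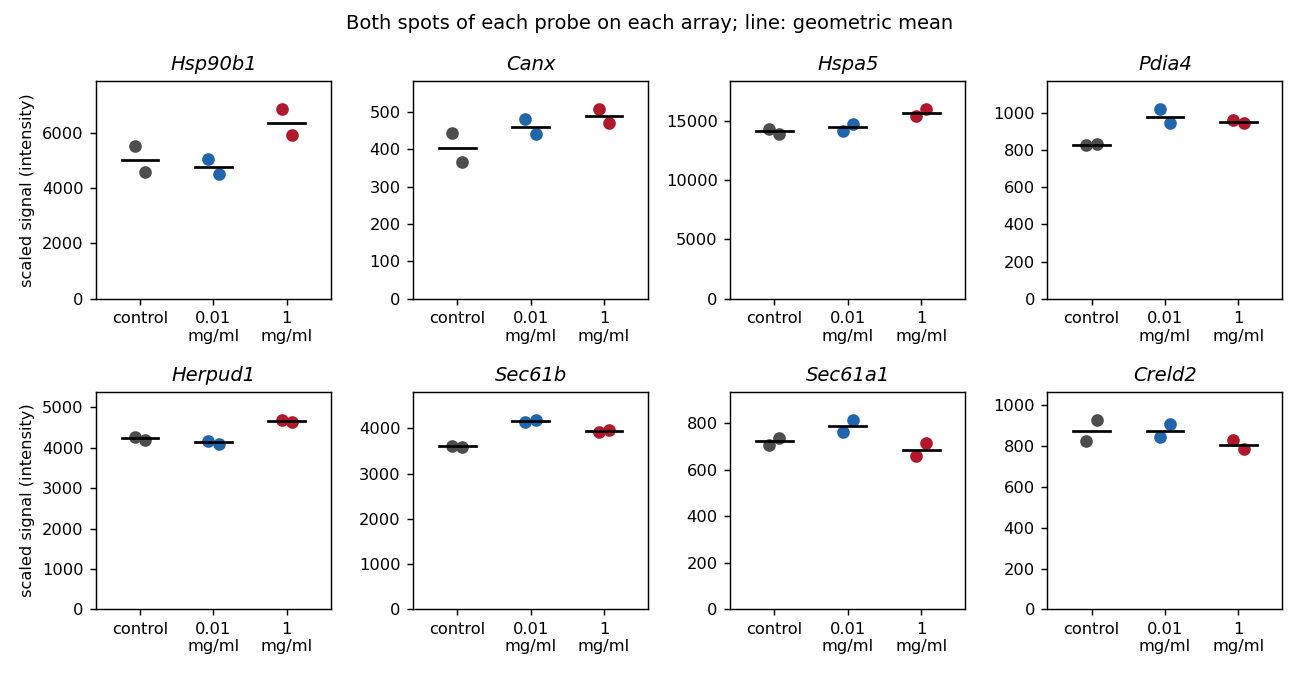
Scaled signal (intensity, linear axis from 0) of both spots of 8 members' probes on the control, 0.01 mg/ml and 1 mg/ml arrays, with the geometric mean as a line. Hsp90b1 is separated at the high dose, where its mean is 6382 against 5036 on the control array, Pdia4 and Sec61b lie above control at both doses, and Sec61a1 is highest at the low dose.

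The 5 disulfide isomerases had a median of 0.02 at the high dose. None of them was called higher or lower, against 7.16% and 7.87% of all genes. Counts at the high dose in the groups that follow are read beside the same shares. Pdia4, which encodes ERp72, stood apart from the others of the group. Its signal was 830 in control cells and 981 and 953 under the low and high dose, log2 ratios of 0.24 ± 0.07 and 0.20 ± 0.07. All 4 spots on the treated arrays, 944 to 1019, lay above the control spots of 826 and 834. The other 4 lay between -0.03 and 0.02 at the high dose: Pdia3, the partner of calnexin and calreticulin, Pdia5, Pdia6 and P4hb, the archetypal isomerase that is also a subunit of collagen prolyl hydroxylase. P4hb read 12622, 13207 and 12839 from control to high dose.

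The stress sensors and XBP1 were all above 0 at the high dose. Their median over 4 genes was 0.15, and none reached 1.2-fold. Atf6 was measured by 2 probes, with a ratio of 0.21 from each. The brighter read 3362, 3307 and 3897 and the dimmer 222, 226 and 258, from control to low to high dose, so that the low dose lay with the control. Eif2ak3, for PERK, read 179, 191 and 195 over 9, 10 and 10 spots, with 1 outlier spot left out on the control array. It stood at 0.13 ± 0.05 (high dose) and 0.10 ± 0.05 (low dose). The lowest of its ratios over the 10 alternative settings were 0.10 and 0.07. Xbp1 stood at 0.08 ± 0.06, and the files do not say whether its probe tells the spliced from the unspliced transcript. Ern1, for IRE1, was near the background, at 26.7 on the control array, and its spots went opposite ways, with ratios of 0.70 and -0.36. Its mean of 0.17 ± 0.25 carries little information.

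The degradation genes had 5 measured members of 7, with a median of 0.08 at the high dose and none called. Herpud1, which brings substrates to the retrotranslocation complex and answers strongly to ER stress, read 4233, 4138 and 4659 from control to high dose. The ratios were -0.03 ± 0.06 (low dose) and 0.14 ± 0.05 (high dose), and its spots on the high dose array, 4683 and 4636, lay above all others. Syvn1, for the ubiquitin ligase HRD1, stood at -0.05 ± 0.06 and Derl1, for a channel component, at 0.07 ± 0.05. Edem1, for a lectin that selects misfolded glycoproteins, stood at 0.08 ± 0.08 with spots of 0.24 and -0.09. Sel1l, the adaptor of HRD1, stood at 0.09 ± 0.15. Derl3 had 2 probes, 11 spots in all, none of them well above background on any array. Derl2 had no probe of its own name. A probe named LOC100910823 in the files has the gene number of Derl2 in the RefSeq gene table, and its single spot read 1273, 1268 and 1266, a ratio of -0.01 ± 0.09 at the high dose and of -0.01 ± 0.09 at the low dose.

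In the translocon and glycosylation group, 7 of 8 members were measured and their median at the high dose was -0.01. Sec61b, the beta subunit of the channel, read 3607, 4160 and 3940 from control to low to high dose. Its ratios were 0.21 ± 0.06 (low dose) and 0.13 ± 0.05 (high dose), with its spots separated between all arrays. Sec61g, the gamma subunit, stood at 0.11 ± 0.04 and 0.07 ± 0.04 in the same order. Sec61a1, the pore subunit, read 721, 787 and 685, so that the low dose lay above the control by 0.13 ± 0.07 and the high dose below it by -0.07 ± 0.07. The translocon-associated protein genes Ssr1, Ssr2 and Ssr3 lay between -0.02 and 0.02 at the high dose and between 0.01 and 0.04 at the low dose. Ostc, a subunit of the oligosaccharyltransferase, stood at -0.09 ± 0.06. The probe of Ssr4 was not well above background on any array.

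The 4 genes of export in COPII vesicles had a median of 0.04 at the high dose. Sec23a, a subunit of the inner coat, read 71.9, 87.8 and 85.4 from control to low to high dose. Its ratios were 0.29 ± 0.18 (low dose) and 0.25 ± 0.18 (high dose), the former called, and under normexp background correction they were 0.02 and 0.08. Sec24d, the cargo adaptor linked to collagen export, stood at -0.03 ± 0.09 and the cargo receptor gene Lman1 at 0.03 ± 0.07. The 2 probes of Sec31a, for the outer coat, gave 0.16 and -0.08 at the high dose and 0.20 and 0.12 at the low dose.

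The second comparison set 0.01 mg/ml against untreated cells. Of the 36 members 1, Sec23a, was at least 1.2-fold higher, against 3.99% of all 14621 genes and 0.725% of those at or above the median level, and 0 were lower, against 5.08% and 0.52%. Sec23a itself lies below that level, so its call is not one among the brighter members. The median was 0.02, beside 0.00 over all genes, with 25 members above 0. Of all 14621 genes 7367 were above 0, and of the 7311 at or above the median level 4000 were. By more than 2 spot errors 5 members were higher (Canx, Pdia4, Edem1, Sec61b and Sec61g), against 4.16% of all genes and 5.39% of those at or above the median level, and 0 were lower against 4.4% and 4.32%. The group medians were 0.02 for chaperones, 0.03 for disulfide isomerases, 0.02 for stress sensors, 0.02 for degradation, 0.04 for the translocon and 0.09 for COPII export, the last being 0.014 under normexp. The lowest member was Ern1 at -0.24 ± 0.26, which is within its spot error. The Sel1l probes opposed each other at the low dose, with 0.19 and -0.38. Edem1 stood at 0.16 ± 0.08 and Derl1 at 0.10 ± 0.05.

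**Figure D3:**
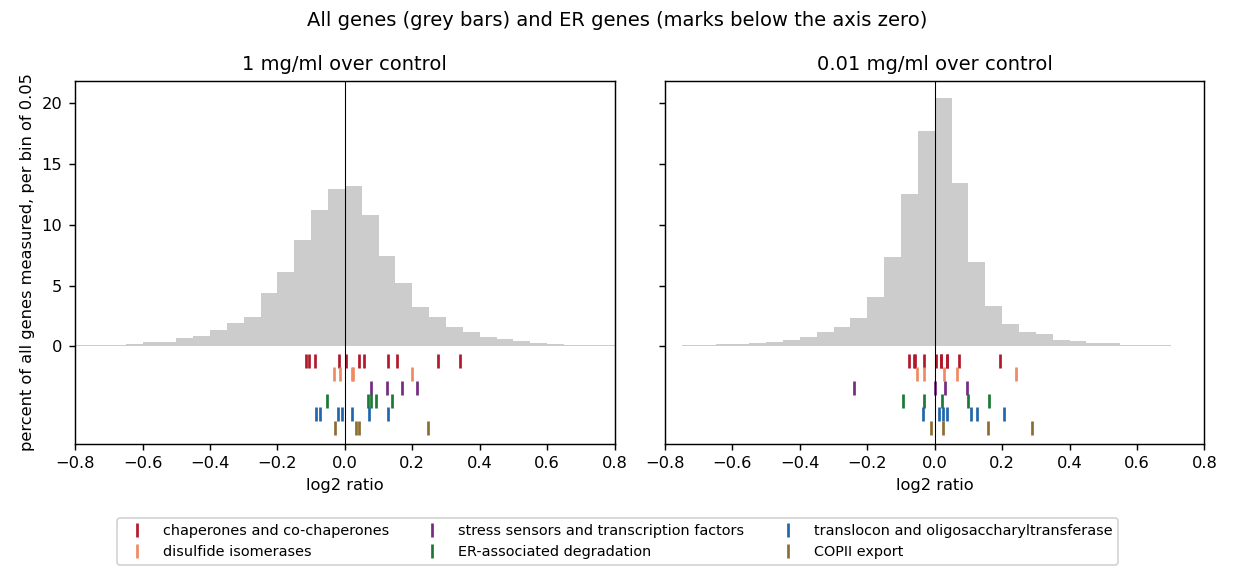
Distribution of the log2 ratio over all measured genes (grey bars, percent of genes per bin of 0.05) for the high dose (left) and the low dose (right) over control, with each ER gene as a coloured mark by its group. The marks run from -0.12 to 0.34 at the high dose and from -0.24 to 0.29 at the low dose, with Hsp90b1 and Canx beyond 1.2-fold in the left panel and Sec23a in the right.

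The third comparison set the doses against each other and did not use the control array. At 1 mg/ml 2 of 36 members, Hsp90b1 at 0.42 ± 0.05 and Ern1 at 0.41 ± 0.26, were at least 1.2-fold higher than at 0.01 mg/ml, against 6.97% of all 14480 genes and 1.64% of those at or above the median level, and 0 were lower, against 6.13% and 1.66%. The Ern1 call rests on a probe near the background and below the median level. With every spot required to be well above background Hsp90b1 was the remaining call. By more than 2 spot errors 4 members were higher (Hspa5, Hsp90b1, Atf6 and Herpud1), against 9.75% of all genes and 10.5% of those at or above the median level, and 2 lower (Dnajb11 and Sec61a1), against 10.8% and 15.1%. The group medians were small and the differences between groups were not tested. The chaperones had a median of 0.04 and the stress sensors 0.13, or 0.047 for the sensors with every spot well above background, which removes Ern1, while the disulfide isomerases had -0.04, the degradation genes -0.03, the translocon -0.04 and COPII export -0.05, beside -0.01 over all genes. The degradation median was above 0 under quantile normalization (0.0077) and without a filter on dim probes (0.032). All 7 measured translocon genes were below 0, led by Sec61a1 at -0.20 ± 0.07. Of all 14480 genes 7670 were below 0, and of the 7240 at or above the median level 4173 were. Ssr3, at -0.005, was above 0 when centred on the median log2 ratio (0.004) and under quantile normalization (0.029). Most of these translocon differences between the doses are within 2 spot errors, with Sec61a1 the exception among them.

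The order of the 3 arrays was read for each member. In 10 of 36 members (27.8%) the low dose was highest and the control lowest, against 12.3% of 14388 genes measured on all arrays: Manf, Pdia4, P4hb, Edem1, Derl1, Sec61b, Sec61g, Ssr3, Sec23a and Sec31a. In 7 members (19.4%, against 19.8% of genes) the level was higher with each step of dose, and these were Hspa5, Calr, Canx, Dnajb9, Xbp1, Atf6 and Eif2ak3. In another 7 (19.4%, against 15.8%) the high dose was highest and the low dose lowest, with Hsp90b1 and Herpud1 among them. In 8 members (22.2%, against 18.4%), Sec61a1 and Creld2 among them, the low dose was highest and the high dose lowest, and Pdia3 alone (2.78%, against 11.3%) was highest in control and lowest at the low dose. Levels were lower with each step of dose in Dnajb11, Dnajc3 and Ostc (8.33%, against 22.4%). Neighbours in these orders often lie within their spot error, as the Atf6 levels on the low dose and control arrays do. The shares of genes given here are over genes of every level. With spike-in centring the control would be lowest in every member but Ern1, so the orders depend on the scaling used. The comparisons of each dose with the control share the control array, so that a low reading there raises both ratios of a gene.

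Read by promoter, the carriers of ERSE did not move as a block. At the high dose the 7 measured carriers had a median of 0.08, with 5 above 0 and 2 below, from 0.34 for Hsp90b1 and 0.28 for Canx through 0.15 for Hspa5, 0.08 for Xbp1 and 0.06 for Calr to -0.09 for Dnajc3 and -0.12 for Creld2. The 3 carriers of ERSE-II had 0.14 for Herpud1, -0.02 for Hyou1 and -0.11 for Dnajb11. The 18 measured members with a window that holds neither element had a median of 0.04, with 14 above 0. At the low dose the medians were 0.02, -0.03 and 0.05 in that order. All ERSE carriers hold the full element because they were chosen by it. Hsp90b1, at the upper end of their range, had 2 matches. Creld2, at the lower end, had 1, and its spots disagreed, with ratios of 0.01 and -0.24. What the element does to these values was not tested.

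Other genes of the same routes were examined in 5 lists, which hold no member. The ER stress signalling list had 18 measured genes of 20, a median of 0.06 at the high dose, 5 called higher and 1 lower, against 7.16% and 7.87% of all genes and 2.4% and 2.54% of those at or above the median level. This list, like the others, was chosen with results of these data known. Its highest gene was Ddit3, for CHOP, which read 17232, 20044 and 28396 from control to high dose, a ratio of 0.72 ± 0.05, and Trib3, a target of CHOP, stood at 0.63 ± 0.06. Ppp1r15a, for the GADD34 subunit that dephosphorylates eIF2alpha, stood at 0.60 ± 0.05. Other genes linked to PERK stood lower, with Atf4 at 0.20 ± 0.02, Ppp1r15b at 0.06, Chac1 at 0.05 and Bcl2l11 at -0.05, none of them called at the high dose. At the low dose Ddit3, Trib3 and Ppp1r15a stood at 0.22, 0.11 and 0.12. The 1 gene of the list called at that dose, against 3.99% of all genes, was Ppp1r15b at 0.32 ± 0.15. It was dim, at 94.9, 119 and 98.8 from control to high dose, and stood at -0.27 ± 0.15 for high against low. The other 2 called higher at the high dose were Nfe2l2, for the antioxidant regulator NRF2, at 0.30 ± 0.05 and Mbtps2, for the site-2 protease that releases ATF6, at 0.43 ± 0.20. Mbtps2 was dim, at 46.3, 55.2 and 62.4 from control to high dose. The lowest of the list was Creb3l1, for the transcription factor OASIS that is known for its role in collagen secretion by osteoblasts, which read 11246, 11407 and 8620, a ratio of -0.38 ± 0.05, followed by Wfs1 at -0.16 ± 0.16.

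The other folding genes had 22 measured of 28, a median of -0.01 at the high dose and 1 call, which was higher. The shares of all genes called were 7.16% higher and 7.87% lower, and they stand beside the lists after this one too. The called gene was Ero1l, for the oxidase that recharges disulfide isomerases. It read 6946, 7740 and 10509 from control to high dose, a ratio of 0.60 ± 0.06. Tmx1, a membrane-bound thioredoxin, followed at 0.24 ± 0.07, while Hspa13 stood lowest at -0.23 ± 0.06, before the isomerase gene Ppic at -0.17 ± 0.05. The other degradation genes had a median of -0.05 over 21 of 22, and none was called. Of these 13 were below 0, and 6 lay more than 2 spot errors below it, against 12.8% of all genes and 16.3% of those at or above the median level. Ufd1l was highest at 0.19 ± 0.06, Ngly1 next at 0.12 ± 0.06, Edem3 lowest at -0.21 ± 0.22 and Man1b1 next at -0.19 ± 0.05. The other translocation and glycosylation genes had a median of 0.02 over 31 of 33 and no call, from Magt1 at -0.22 ± 0.07 and Dad1 at -0.12 ± 0.05 to Srp72 at 0.19 ± 0.06 and Sec61a2 at 0.23 ± 0.08.

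The other genes of ER export and retrieval had 31 measured of 33, a median of -0.02 at the high dose and 1 call, which was lower. Preb, for the exchange factor SEC12 that starts the COPII coat, read 323, 314 and 231 from control to high dose, a ratio of -0.48 ± 0.14. Kdelr3, for a receptor that returns ER residents, stood at -0.23 ± 0.07, and Sec16a and Sec22b were highest at 0.18 ± 0.07 and 0.18 ± 0.06. Between the doses 22 of the 31 were lower at the high dose, 12 of them by more than 2 spot errors against 10.8% of all genes, with a median of -0.08. At the low dose against control 24 of the 31 were above 0, with a median of 0.03. So were 7367 of all 14621 genes and 4000 of the 7311 at or above the median level.

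**Figure D4:**
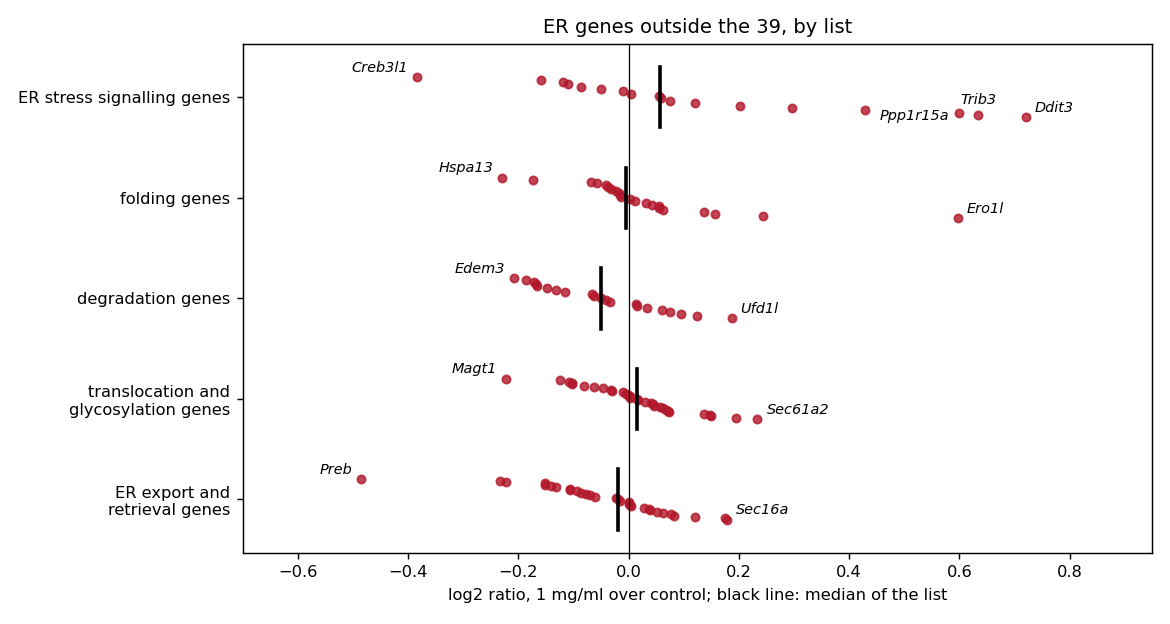
Log2 ratio at the high dose over control for the measured genes of the 5 lists of further ER genes (1 point per gene, black line at the list's median). Ddit3 at 0.72, Trib3 at 0.63, Ppp1r15a and Ero1l at 0.60 stand to the right, and Preb at -0.48 and Creb3l1 at -0.38 to the left, while the list medians lie between -0.05 and 0.06.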

How the data were processed

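Total RNA of 3 groups was measured on 1 one-colour array each, all on the same slide, so position on the slide and group cannot be told apart. The members and lists were chosen with earlier results of these data known. Per the file headers, the spot intensity values were deposited as output of Agilent Feature Extraction 10.7.3.1 (protocol GE1_107_Sep09, array design 028279, probe coordinates in rn4), background-subtracted and detrended within the array and not normalized between arrays. The 0 or 1 flags for spots well above background, outliers and saturation were deposited in the same files. The deposited series table holds ratio values, each equal to the processed signal over 1 constant per array (823, 849 and 823 for high, low and control, with a deviation of at most 0.000123%). It is thus linear, uncentred between genes and in the direction of the signal, with column medians of 0.0734, 0.0731 and 0.0737, and the authors' reasons for these constants are not given in the sources used here.

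Each processed signal was divided by the 75th percentile of its array's 58717 non-control spots and put on the log2 scale. Outlier spots (352, 368 and 426) were left out unless all spots of a probe were flagged, no spot was saturated, and log2 values of a probe's spots were averaged. A probe needed 50% of its spots well above background on both arrays, and a gene's log2 ratio is the mean over such probes. The spot SD was pooled over probes in 20 bins of level, and the script was tested on simulated arrays. Genes were named as in the files. The text names all members, the 2 highest and 2 lowest genes of each list at the high dose, osteoblast markers and Ddit3. Ppp1r15a, Nfe2l2, Mbtps2, Atf4, Ppp1r15b, Chac1 and Bcl2l11 were named after their values were seen. Python 3.11.15 with numpy 2.4.6 and pandas 2.3.3, and limma 3.58.1 in R 4.3.3 for normexp (offset 50) and quantile normalization, were used. With 1 array per group no test was possible. The precision is limited by the number of arrays. Amino acid signals for ER retrieval were not analysed here.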

Additional observations from a re-analysis of the deposited data

How the results depend on the processing

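Of the 10 alternative settings besides other fold thresholds, centring on spike-ins moved most. It put the medians at the high dose against control at 0.20 for chaperones, 0.17 for disulfide isomerases, 0.30 for stress sensors, 0.23 for degradation, 0.15 for the translocon, 0.19 for COPII export and 0.20 for all members, and at the low dose at 0.18, 0.19, 0.17, 0.18, 0.19, 0.25 and 0.18 in that order. Its counts of members at least 1.2-fold higher were 11 and 8, while 22.4% of all genes were then higher and 2.57% lower at the high dose, and 15.7% and 1.79% at the low dose, in place of 7.16% and 7.87%, and 3.99% and 5.08%. The shift is the same for every gene. Normexp left 1 member higher at the high dose over control, 0 at the low dose over control and 1 between the doses, with 2.34%, 0.609% and 2.28% of all genes higher. With every spot well above background, a filter chosen after seeing the data, the sensors' median for high against low was 0.047 and 1 member was higher. Without a filter on dim probes the degradation median for high against low was 0.032, and with the brightest probe of a gene it was 0.10 for low against control. At 1.1-fold, 8, 6 and 5 members were higher and 0, 1 and 1 lower, in the order high against control, low against control and high against low, with 18.0%, 10.7% and 17.8% of all genes higher and 21.1%, 13.6% and 17.8% lower. At 1.5-fold 0 were higher in each, with 0.828%, 0.404% and 0.746% of all genes. Hsp90b1 stayed at least 1.2-fold higher for high against control and against low under all 10 settings, and Canx for high against control under 9, with 0.23 under normexp. Updated symbols changed no member's probes. Relative to all genes, the members' median at the high dose ran from 0.00 to 0.06 over the 10 settings. Single probes near the background (Ern1, Sec23a, Sel1l) have the least precise ratios. No paired analysis was possible because each group holds 1 array.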

Other observations

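Of 4 genes for proteins that pass through this machinery in osteoblasts, picked from the 9 osteoblast markers, none was called higher or lower at the high dose. The shares of all genes called were 7.16% and 7.87%, so no call among 4 genes says little. Spp1 lay just under the line. Col1a1, for the main chain of bone collagen, read 10159, 10239 and 8556 in control, low dose and high dose cells, summed over its 2 probes, with log2 ratios over control of -0.23 ± 0.05 (high dose) and -0.01 ± 0.05 (low dose). Spp1, for the secreted phosphoprotein osteopontin, read 9898, 10069 and 11869, with ratios of 0.26 ± 0.02 and 0.02 ± 0.02. Its high dose ratio of 0.262 stands beside a 1.2-fold line of 0.263. Ibsp, for bone sialoprotein, stood at -0.02 ± 0.05 and -0.06 ± 0.06, and Alpl, for the membrane-anchored alkaline phosphatase, at -0.13 ± 0.06 and 0.09 ± 0.06. The marker Bglap, not among the 4, was dim at 42.6, 41.5 and 49.9 and stood at 0.23 ± 0.23 and -0.04 ± 0.24. Among genes linked to collagen above, P4hb stood at 0.02 at the high dose, Sec24d at -0.03 and Creb3l1 at -0.38. They are not a full set of such genes, and their relation to Col1a1 was not tested.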
